A study of Mus musculus with 12 samples.

Results

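In 2203 genes of the mouse hippocampus, the outermost cleavage and polyadenylation sites (PASs) labelled exon3 lay 801 to 2000 nt apart. The sources used here do not define the labels, and exon3 was taken from its name and from the positions to stand for the 3′-most exon. These genes held 7610 of the 31279 PASs that carry the label exon3 (24.3%) in a list of 56204 entries, and they made up 29.5% of the 7465 genes whose exon3 PASs, at least 2, share a chromosome. Members were chosen by label and position, without read numbers, although which PASs are on the list depends on how deeply the libraries were sequenced. The distance between the outermost PASs is called the span here. Where both lie after the stop codon, the span is the stretch by which the longest and the shortest listed 3′UTR of a gene differ. The paper's alternative 3′UTR (aUTR) is instead the distance between the 2 PASs of a 3′UTR with the highest abundance. Spans and aUTR sizes are thus unlike measures.

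The list came from 3′READS+, which sequences the 3′ ends of polyadenylated RNA, in 12 libraries of acute hippocampal mini-slices from wild-type C57BL/6 male mice labelled as 3 months old, with the dentate gyrus trimmed off. Chemical long-term potentiation (cLTP) was induced over 10 min with 50 µM forskolin, which raises cAMP, followed by forskolin with 30 mM KCl and 10 mM Ca2+. Time-matched control slices of the same animals received 0.2% DMSO, and RNA was taken 1 hr or 3 hr after treatment, which gives 4 groups of 3 libraries. A mini-slice holds several cell types, and the response of cLTP slices was checked by RT-qPCR of *Arc* and *Homer1*. From its own analysis of PASs the paper excluded a 3 hr control library, an outlier in the clustering of samples. The list of PASs is common to the 12 libraries, the excluded one among them, and the read numbers of the list were not used here. Nothing below is therefore a comparison of cLTP with control slices, and how often each PAS was used is not known from it.

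Cleavage of a pre-mRNA at one of several PASs after the stop codon leaves the protein unchanged and sets the length of the 3′UTR, while cleavage before the stop codon alters the coding sequence. The cleavage machinery recognises a hexamer, most often AAUAAA and else often AUUAAA, a short way upstream of the cut. The stretch between the first and the last PAS of a 3′UTR is present in the distal isoform and absent from the proximal one, and such stretches can carry sites for microRNAs and RNA-binding proteins that affect the stability, translation and localisation of an mRNA in neurons.

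The ends of annotated transcripts of some member genes show the hexamers as they stand in these mRNAs. Each line gives the last 30 bases of the transcript with the longest annotated 3′UTR (GENCODE M21, GRCm38, sense strand), with the hexamer in capitals. They are annotated ends, which were not matched to the listed PASs, and they were chosen to show either form of the hexamer and its absence.
*Camk2g*: gatatttAATAAAataacctttaaacagtc
*Dlg1*: tcatctaagAATAAAtatctttttggtcag
*Gria3*: cattttgtaAATAAAattgtaaagaaagca
*Shank3*: tattatgtAATAAAtttataagaaatgaaa
*Cstf1*: tctaaAATAAAttttttttatataacagtg
*Prkacb*: gcaaaATTAAAgtatcttcaaaggataaaa
*Jag1*: tatttATTAAAttttttgtatgaaaacatg
*Notch1*: gatactgatggttgtccacattttgctaaa

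In these ends, *Notch1* aside, the hexamer stops 15 to 19 nt before the last base, and the last 30 bases for *Notch1* hold neither hexamer. Over the 2139 member genes with an annotated 3′UTR, AATAAA stood in the last 50 nt of the transcript, on the sense strand, in 1366 genes (63.9%, 95% Wilson interval 61.8 to 65.9%). ATTAAA without AATAAA stood there in another 351 genes (16.4%). Over the 14603 genes of the list with an exon3 PAS and an annotated 3′UTR, the shares were 64.8% and 15%. In the classes by span, AATAAA stood in 54.8% of the genes spanning up to 250 nt, in 60.6% of those spanning 251 to 800 nt, in 67.9% of those spanning over 2000 nt and in 67.8% of the genes with 1 exon3 PAS.

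The members were spread over the whole range allowed by the rule. Their spans had a median of 1311 nt (95% interval of the median 1282 to 1336 nt), and the quartiles stood at 1034 and 1605.5 nt. The number of genes per 100 nt fell from 226 at 801 to 900 nt to 115 at 1901 to 2000 nt, so that the bounds cut through a continuous distribution. At the lower bound, *Acsf2*, *Mboat2* and *Ncf1* were inside at 801 nt, while *Epc1* and *Rbak* at 800 nt and 4930455C21Rik at 799 nt were outside. At the upper bound, *Cldn1* spanned 2000 nt, *Oxsm* 1999 nt and *Cacna1i* 1998 nt, and the nearest genes outside were *Lgr5* at 2005 nt, *Zfp946* at 2007 nt and *Zmym2* at 2009 nt.

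**Figure D1:**
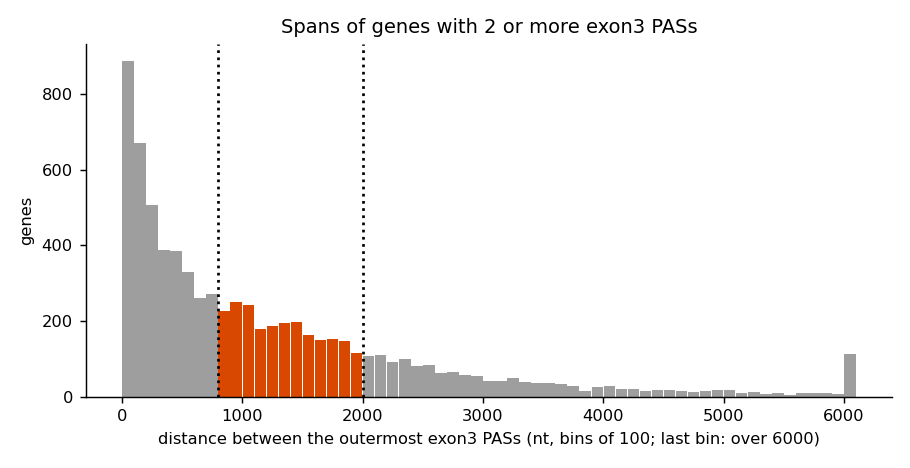
Number of genes (vertical axis) by the distance in nt between their outermost exon3 PASs (horizontal axis, bins of 100 nt), for genes with 2 or more such PASs on 1 chromosome. The coloured bins between the dotted lines hold the 2203 genes spanning 801 to 2000 nt, from 226 genes in the first of these bins to 115 in the last, and the rightmost bar collects the 113 genes spanning over 6000 nt.

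A majority of the member genes had more than the minimum of 2 listed tandem PASs. The paper counts PASs per library with limits on reads and on relative abundance, and these limits were not applied here. A PAS counted here can thus be a minor one. There were 735 genes with 2 PASs (33.4%), 626 with 3 (28.4%), 406 with 4 (18.4%) and 436 with 5 or more (19.8%). Genes with 3 or more made up 66.6% of members (64.6 to 68.6%), beside 19.7% of the genes spanning up to 250 nt, 49.3% of those spanning 251 to 800 nt and 78.8% of those spanning over 2000 nt. An added PAS can only keep or widen a span, and PASs within 24 nt were joined, so this order is in part built in. Within the members the median span was 1204 nt at 2 PASs (1169 to 1232 nt), 1306.5 nt at 3, 1339 nt at 4, 1456 nt at 5 (1372 to 1516 nt), 1455 nt at 6, 1495.5 nt at 7 and 1337 nt at 8 (1275 to 1752 nt, 26 genes). The median thus did not rise with every added PAS. These intervals cover counting error over genes only.

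The 5 members with the most listed exon3 PASs were *Shank3* with 17, *Efnb3* with 15, *Chst15* with 12, and *Fndc5* and BC017647 with 11 each. *Shank3* encodes a master scaffold of the postsynaptic density, and its 17 PASs were spread over 1796 nt on chromosome 15 (chr15:89388896-89390692 in the coordinates of the list, plus strand), with no interval longer than 456 nt. *Efnb3* encodes ephrin-B3, a membrane-bound ligand of Eph receptors, and its 15 PASs covered 1927 nt. *Chst15* encodes a sulfotransferase that acts on chondroitin sulfate. *Fndc5* encodes the precursor of irisin. In these genes the longest interval took between 21.5% (*Chst15*) and 37.7% (BC017647) of the span.

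Neighbouring PASs of member genes lay a median of 372 nt apart over 5407 intervals (352 to 394 nt), with the quartiles at 115 and 901 nt. Intervals of 50 nt or less made up 9.60% of these and occurred in 408 genes (18.5%). Intervals of 801 nt or more made up 29.6% and occurred in 1582 genes (71.8%). The closest PASs were 25 nt apart, which follows from the clustering by the authors, in which PASs within 24 nt of each other were joined.

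The PASs of a gene were unevenly spaced in many members. In the 1468 members with 3 or more PASs, the longest interval covered a median of 67.3% of the span (65.9 to 68.8%). It was the last interval in 579 genes (39.4%) and the first in 502 (34.2%). With 3 PASs the longest of the 2 intervals is at least 50% of the span by arithmetic, and more PASs allow a smaller share. The median share was 82.0% at 3 PASs, 66.4% at 4, 57.7% at 5 and 49.5% at 6, and no value for even or random placement was computed. Among the 842 members with 4 or more PASs, the longest interval was over 50% of the span in 577 (68.5%, 65.3 to 71.6%). Over genes with 3 or more PASs, the median was 61.5% in genes spanning up to 250 nt, 69.1% in those spanning 251 to 800 nt and 64.8% in those spanning over 2000 nt.

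The 3204 PASs between the outermost ones lay more often near either end of the span than in its middle. Of these inner PASs 26.8% fell in the first 20% of the span and 23.6% in the last 20%, beside 17.1%, 16.3% and 16.1% in the 3 equal stretches between them. In genes spanning over 2000 nt the shares in these outer stretches were 29.3% and 23.7%. In genes spanning 251 to 800 nt the 5 stretches held 19.6%, 19.9%, 17.0%, 21% and 22.5%, with no excess in the first. In genes spanning up to 250 nt they were 7% and 11.5%, and there PASs within 24 nt of an outermost one had been joined to it, which empties the outer stretches. In the 626 members with exactly 3 PASs, the inner one lay in the first 10% of the span in 111 genes, in the last 10% in 90 genes and between these limits in 425 genes (67.9%).

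**Figure D2:**
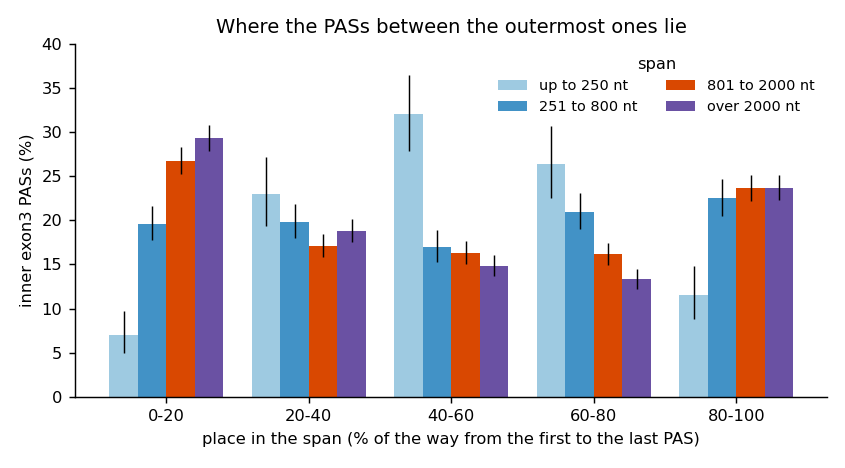
Share of inner exon3 PASs (vertical axis, %) by place in the span (horizontal axis, in steps of 20% from the first to the last PAS in the order of transcription), for 4 classes of genes by span, with 95% Wilson intervals as error bars. In genes spanning 801 to 2000 nt the first 20% of the span hold 26.8% and the last 20% hold 23.6%, and the genes spanning up to 250 nt show the opposite order, with 32.1% between 40 and 60%.

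Member genes were compared with the annotated length of their 3′UTRs. The rule did not use that length, but PASs that lie far apart in a 3′UTR need a long 3′UTR. A rise of the values below with the class of span is therefore in part fixed by the rule. The longest annotated 3′UTR in GENCODE had a median of 1871 nt (1835 to 1908 nt) in the 2139 members that have one. The median was 655.5 nt in genes with 1 exon3 PAS, 781 nt and 1087.5 nt in the 2 classes of shorter span and 3406 nt in the class spanning over 2000 nt. The span was longer than the annotated 3′UTR in 144 members (6.73%), whose spans cannot lie within that 3′UTR as a whole. In the others the span was a median of 72.7% of the annotated 3′UTR, so that for these genes the stretch between the outermost PASs is the larger share of that length. In genes spanning up to 250 nt the median was 12.2%, in those spanning 251 to 800 nt 43.7% and in those spanning over 2000 nt 88.4%.

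Notch signalling, in which a membrane receptor is cleaved upon ligand binding and its intracellular part acts with Rbpj on transcription, was represented by 6 members of the 19 listed pathway genes with tandem PASs (31.6%, beside 29.5% over all genes). *Notch1*, the receptor singled out by the study, had 3 PASs on the minus strand of chromosome 2 (chr2:26313423-26314774). The second lay 67 nt after the first and the last 1284 nt further, so that a single interval made up 95% of the span of 1351 nt. *Notch2*, a paralogous receptor, had 8 PASs over 1504 nt, at 0, 291, 380, 438, 1168, 1349, 1405 and 1504 nt from the first. The sister receptors thus had spans of similar length with a different spacing of PASs. *Jag1*, a ligand, had 4 PASs within 185 nt and 2 more at 926 and 959 nt. *Rbpj*, the DNA-binding partner, had 3 PASs within 121 nt and the last at 1221 nt. *Hey1*, a transcriptional target of the pathway, had 5 PASs over 983 nt, and *Mib1*, a ubiquitin ligase that acts on Notch ligands, had 5 over 1148 nt.

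**Figure D3:**
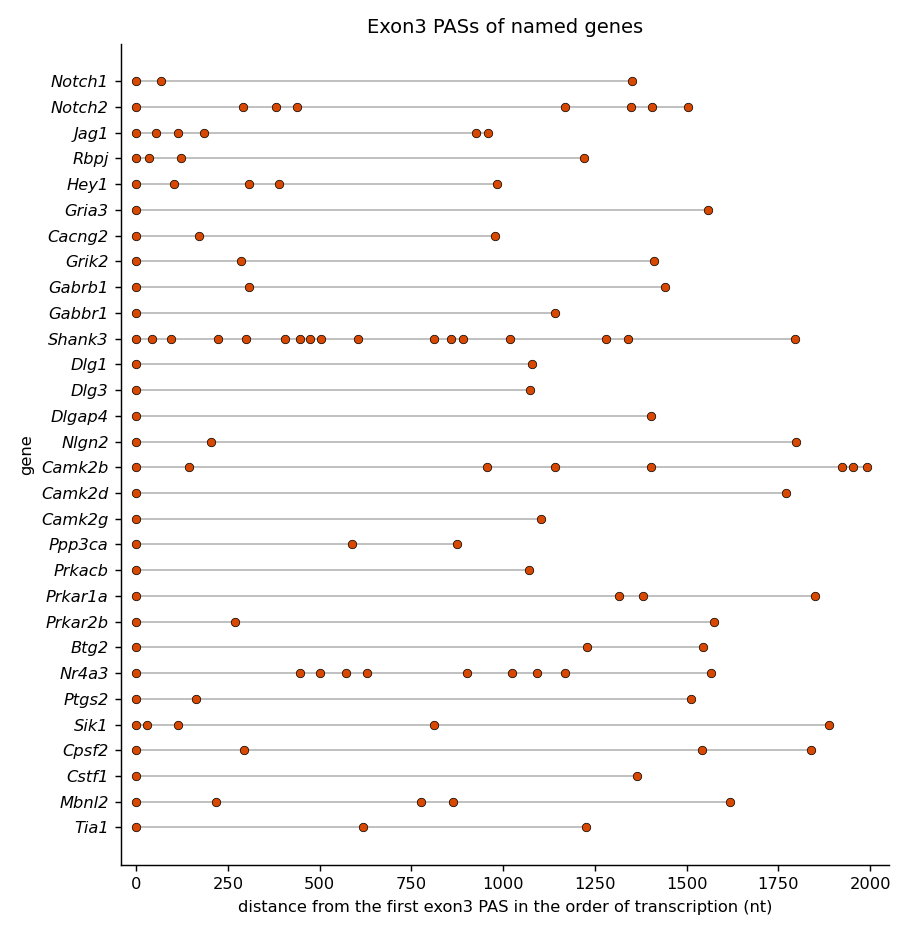
Exon3 PASs (points) of 30 member genes (vertical axis) as distance in nt from the first exon3 PAS in the order of transcription (horizontal axis), with a grey line over the span. *Gria3*, *Dlg1*, *Camk2d* and *Camk2g* have PASs at the ends only, *Notch1* has a pair 67 nt apart at the start, and *Shank3* has 17 PASs along 1796 nt.

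The kinases and phosphatases of LTP gave 9 members among 20 genes with tandem PASs (45%, beside 29.5% over all genes). The list is small and the difference was not tested. Of the 4 genes of calcium/calmodulin-dependent kinase II, whose alpha and beta subunits are the main forms in forebrain neurons, *Camk2b*, *Camk2d* and *Camk2g* were members, while *Camk2a* spanned 250 nt or less. *Camk2b* had 8 PASs over 1992 nt, with the last 3 within 70 nt of each other. *Camk2d* had a pair of PASs 1772 nt apart and *Camk2g* a pair 1104 nt apart. Of the subunits of protein kinase A, which cAMP activates, the catalytic *Prkacb* had a pair 1071 nt apart, the regulatory *Prkar1a* had 4 PASs over 1850 nt and the regulatory *Prkar2b* had 3 over 1574 nt. *Ppp3ca*, the catalytic subunit of calcineurin, had PASs at 0, 587 and 875 nt. The tyrosine kinase gene *Fyn* had a pair 958 nt apart, and *Ppp1cb*, a catalytic subunit of protein phosphatase 1, a pair 962 nt apart.

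Genes of cAMP and calmodulin signalling, the route that forskolin acts on, gave 8 members among 21 (38.1%, beside 29.5% over all genes, not tested). The adenylyl cyclase genes *Adcy5* and *Adcy6* spanned 1345 and 1556 nt, with 2 and 5 PASs. The phosphodiesterases that degrade cyclic nucleotides were represented by *Pde4b* (1552 nt), *Pde4d* (1296 nt), *Pde7b* (990 nt) and *Pde8b* (1466 nt). *Akap6*, which anchors protein kinase A, had a pair 1904 nt apart, and *Calm3*, 1 of the calmodulin genes, a pair 1428 nt apart.

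The list named for scaffolds of the postsynaptic density gave 7 members among 13 genes (53.8%, beside 29.5% over all genes). It also holds genes of adhesion proteins, such as *Nlgn1* and *Nlgn2*. The list is small and the difference was not tested. Besides *Shank3* these were the membrane-associated guanylate kinases *Dlg1* (chr16:31872356-31873434, plus strand) with a pair 1078 nt apart and *Dlg3* with a pair 1074 nt apart, their partner *Dlgap4* with a pair 1403 nt apart, *Magi1* (894 nt) and *Magi2* (1050 nt), again with 2 PASs each, and the adhesion protein gene *Nlgn2* with 3 PASs over 1798 nt. *Shank3* with its 17 PASs thus stood beside 5 scaffold genes with the minimum of 2.

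Each family of transmitter receptors gave 4 members or fewer. Of 11 GABA receptor genes 4 were members (36.4%, beside 29.5% over all genes, not tested). *Gabrb1*, a subunit of the GABA-A chloride channel, had 3 PASs over 1440 nt, and *Gabbr1*, a subunit of the metabotropic GABA-B receptor, had 2 over 1141 nt. Of 8 genes of AMPA receptors and their auxiliary proteins 2 were members (25%). These were *Gria3*, an AMPA receptor subunit with a pair 1557 nt apart, and *Cacng2*, which encodes the auxiliary protein stargazin, with PASs at 0, 170 and 979 nt. *Gria1* and *Gria2* spanned over 2000 nt. Of the metabotropic and kainate receptor genes 1 of 9 was a member (11.1%), the kainate receptor subunit *Grik2* with 3 PASs over 1411 nt. The single NMDA receptor gene with tandem PASs, *Grin2b*, spanned over 2000 nt.

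Presynaptic genes for SNARE proteins and vesicle release gave 10 members among 20 (50.0%, beside 29.5% over all genes). The list is small and the difference was not tested. *Syt1*, the calcium sensor of fast release, had 4 PASs at 0, 448, 981 and 1457 nt, an even spacing in which the longest interval took 36.6% of the span. *Syt7* and *Syt12* had pairs 1560 and 1402 nt apart, and *Syt13* had 3 PASs over 1430 nt. The synaptic vesicle glycoprotein genes *Sv2a* and *Sv2b* spanned 1533 and 1440 nt, with 4 and 2 PASs. *Napa* and *Napb*, which encode the SNAP proteins that help to take SNARE complexes apart, had pairs 849 and 1053 nt apart. *Stx12* and *Stx16*, syntaxins of the endosomal system, had 3 PASs over 995 nt and 6 over 1786 nt. Potassium and calcium channel genes gave 7 members among 26 (26.9%), *Cacna1d*, *Cacna1i*, *Cacnb2*, *Kcna4*, *Kcnh1*, *Kcnj2* and *Kcnj9*, with spans of 825 nt (*Kcnh1*) to 1998 nt (*Cacna1i*).

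Among genes known to be induced by activity, 8 of 24 were members (33.3%, beside 29.5% over all genes, not tested). *Nr4a3*, an orphan nuclear receptor, had 10 exon3 PASs over 1565 nt and 6 intronic ones. *Btg2*, an antiproliferative immediate early gene, had PASs at 0, 1228 and 1544 nt, and *Ptgs2*, which encodes cyclooxygenase-2, at 0, 163 and 1512 nt. *Sik1*, a kinase that acts on CREB coactivators, had 5 PASs over 1888 nt. *Egr1*, a zinc finger transcription factor, had PASs at 0, 1869 and 1912 nt, and the span exceeded its annotated 3′UTR of 1216 nt. *Dusp4*, *Nrn1* and *Rgs2* spanned 920, 856 and 999 nt. *Arc*, *Homer1*, *Wdr33* and *Creb1* were not members. *Arc* had 1 exon3 PAS, *Homer1* and *Wdr33* spanned 251 to 800 nt, and *Creb1* spanned over 2000 nt. Of the CREB family and its coactivators 2 of 9 were members (22.2%), *Atf1* with 5 PASs over 1349 nt and *Crem* with 6 over 1157 nt.

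Genes that act on mRNA ends and 3′UTRs were members at shares of 21.9 to 27.8%, beside 29.5% over all genes with tandem PASs. The lists hold 8 to 32 such genes, and no difference from that share was tested. The cleavage and polyadenylation machinery gave 5 of 18 (27.8%). *Cpsf2*, a subunit of the factor that binds the hexamer, had PASs at 0, 295, 1543 and 1839 nt. *Cstf1*, a subunit of the cleavage stimulation factor, had a pair 1364 nt apart. *Papolg*, a poly(A) polymerase, had 5 PASs over 964 nt, *Rprd1b*, which binds the tail of RNA polymerase II, a pair 884 nt apart, and *Rtf1*, an elongation factor of the Paf1 complex, 3 over 1192 nt. Neuronal RNA-binding proteins gave 7 of 32 (21.9%), and 13 of that list spanned over 2000 nt. *Mbnl1* and *Mbnl2*, splicing and localisation factors, had 2 PASs over 884 nt and 5 over 1619 nt. *Elavl3* (864 nt), *Khdrbs1* (1216 nt), *Pum2* (1088 nt), *Rbfox1* (854 nt) and *Tia1* (1226 nt) were the others. Of the microRNA pathway 2 of 8 were members (25%). *Eif2c1*, which encodes Argonaute 1, had 3 PASs over 1921 nt, and *Tnrc6c*, a partner of Argonaute, a pair 1569 nt apart.

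Gene families with general functions lay on both sides of the share over all genes. With tandem genes as the base, members made up 14.7% of cytosolic ribosomal proteins (5 of 34). They made up 9.52% of genes named as nuclear-encoded parts of oxidative phosphorylation (2 of 21) and 21.4% of genes named as proteasome subunits (3 of 14). Of microtubule-associated proteins they made up 9.09% (1 of 11, *Mtap7*). They made up 36.4% of Zfp zinc finger genes (86 of 236), 29.1% of solute carriers (43 of 148), 33.3% of Rab GTPases (10 of 30), 30.8% of kinesins (4 of 13) and 28.8% of ubiquitin-specific peptidases and E2 enzymes (15 of 52). With all genes that have an exon3 PAS as the base, the share over the list was 14.6%, and it was 2.27% for oxidative phosphorylation, 6.25% for ribosomal proteins and 25.9% for Zfp genes. The 5 ribosomal genes were *Rpl5*, *Rpl15*, *Rpl21*, *Rps2* and *Rps3*. Ribosomal protein genes have many processed copies in the genome, so the assignment of PASs to them is uncertain, and in *Rps2* the span of 1332 nt exceeded an annotated 3′UTR of 46 nt and held 2 PASs labelled exonI. The lists are small, they were written with earlier results of these data known, and no list was tested against the others.

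**Figure D4:**
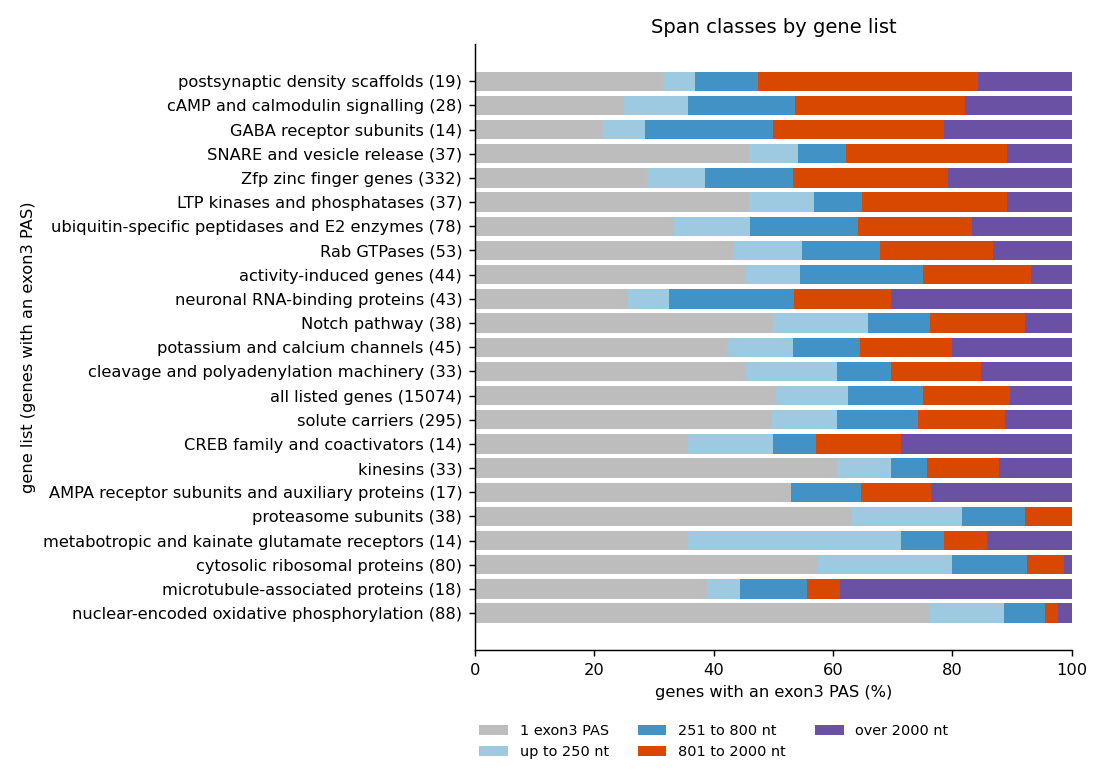
Share of genes with an exon3 PAS (horizontal axis, %) that had 1 such PAS or fell in each class of span (colours), for 22 gene lists and all listed genes (vertical axis, with the number of genes in parentheses, and Gm2058, with exon3 PASs on 2 chromosomes, in no class). The share spanning 801 to 2000 nt is 36.8% for postsynaptic density scaffolds (a list that also holds adhesion protein genes), 14.6% over all listed genes and 2.27% for oxidative phosphorylation.

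Markers of the cell types that a mini-slice holds were on the list. Exon3 PASs were listed for 12 of 12 neuron markers, 10 of 10 interneuron markers, 10 of 10 astrocyte markers, 10 of 11 oligodendrocyte markers, 10 of 10 microglia markers and 8 of 9 endothelial and mural markers. Over the whole list, 15075 of 16627 genes had an exon3 PAS, so such counts are usual for listed genes. Member genes among them were *Syt1* and *Nefl* (2 of 8 neuron markers with tandem PASs), *Glul* and *Sox9* (2 of 4 astrocyte markers), *Cspg4* (1 of 7 oligodendrocyte lineage markers) and *Kdr* (1 of 4 endothelial and mural markers). None of the 4 interneuron and 5 microglia markers with tandem PASs was a member. Over all genes with tandem PASs the share of members was 29.5%. These lists are small and no difference from that share was tested. A listed PAS shows that a transcript end was seen in at least some library and says nothing of the share of a cell type.

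Other PASs of the same genes were listed under other labels. Intronic PASs, whose use would truncate the coding sequence, were listed for 877 members (39.8%, 37.8 to 41.9%), beside 25.1% of genes with 1 exon3 PAS and 38.7%, 39.5% and 40.2% of the other classes with tandem PASs in the order of their span. The nearest of them lay a median of 8911 nt before the first exon3 PAS. The most intronic PASs were listed for *Spred2* (17), an inhibitor of Ras signalling, *Cntn3* (16), a neuronal adhesion molecule, and *Itga8* (16, of them 13 with the label intron_Comp and 3 with the label intron_Skip), an integrin. PASs labelled exon3ext, taken to lie downstream of the last exon, were listed for 341 members (15.5%), the nearest a median of 683 nt beyond the last exon3 PAS. They lay farthest beyond it in *Zfp846* (10217 nt), *Dolpp1* (8797 nt) and *Slc38a6* (7952 nt). PASs labelled UA, which lie on the strand opposite to the gene, were listed for 358 members (16.3%). PASs labelled exonI, in internal exons by their name, were listed for 67 (3.04%). In the other classes with tandem PASs, by rising span, the shares were 14.6%, 16.8% and 12.7% for exon3ext. They were 15.2%, 16.8% and 16.2% for UA, and 3.96%, 4.42% and 3.00% for exonI. In genes with 1 exon3 PAS they were 9.16% (exon3ext), 10.1% (UA) and 1.80% (exonI). Counting every label, a member had a median of 4 listed PASs, with 26 at most.

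**Figure D5:**
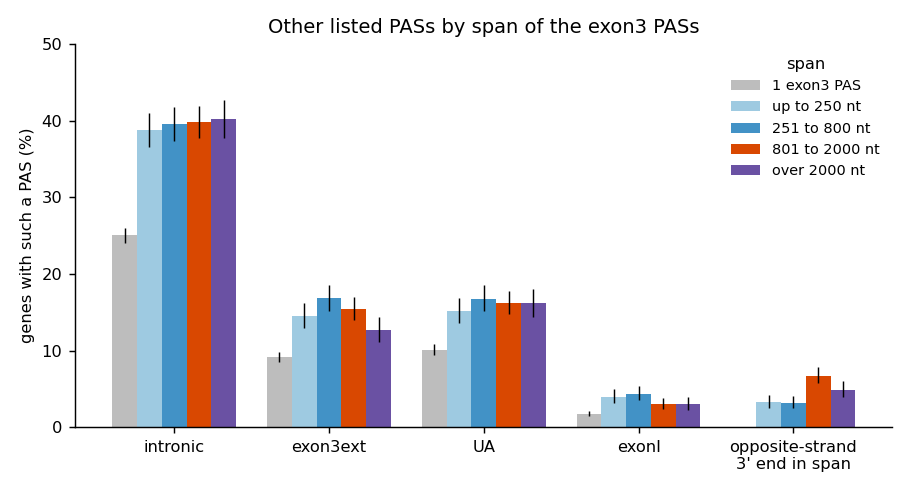
Share of genes (vertical axis, %) with a listed PAS of 4 other labels, or with an opposite-strand 3′ end of another gene inside the span (horizontal axis), by class of span, with 95% Wilson intervals as error bars. For genes spanning 801 to 2000 nt the shares are 39.8% (intronic), 15.5% (exon3ext), 16.3% (UA), 3.04% (exonI) and 6.76% (opposite-strand 3′ end). Genes with 1 exon3 PAS have no span and no bar in the last group.

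In 149 member genes (6.76%, 5.79 to 7.89%) the span also held the 3′ end of a convergent gene on the opposite strand. The share was 3.30% in genes spanning up to 250 nt, 3.20% at 251 to 800 nt and 4.92% (3.95 to 6.11%) at over 2000 nt. A longer span has more room for such a site, which was not allowed for. PASs labelled exon3ext were counted as 3′ ends too, and 33 members held opposite-strand PASs with this label. Of these members 100 held 1 such site and 49 held 2 or more. They formed 138 pairs with their partner genes, and in 20 pairs both genes were members. In *Rpl5*, a ribosomal protein gene, 4 PASs of *Fam69a* lay 59, 281, 909 and 947 nt after the first PAS, the last of them 3 nt before the distal PAS of *Rpl5* at 950 nt. In *Cacna1d*, an L-type calcium channel, 2 PASs of *Chdh* lay at 880 and 997 nt of a span of 1418 nt. In *Pde8b* 2 PASs of *Wdr41*, both labelled exon3ext, lay at 1020 and 1403 nt, the latter 1 nt from a PAS of *Pde8b* at 1402 nt. With any label counted, the most opposite-strand PASs were found in *Npc1* (6, all of 3110002H16Rik), D11Wsu99e (5, all of *Cog1*) and *Crbn* (5, all of *Trnt1* and none of them a 3′ end).

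Members lay on 20 chromosomes, from 60 genes on chromosome X to 187 on chromosome 2. Their share of the genes with tandem PASs ran from 24.8% on chromosome X to 34.1% on chromosome 14, and 51.4% of them were on the plus strand. Of the 2203 symbols 2184 matched an annotated gene, and 2142 of these were protein coding.

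MicroRNAs known in neurons were used to describe the sequence that a longer 3′UTR can add. The mature sequences below are from RefSeq (GRCm38 entries), with the seed, bases 2 to 8, in capitals. They are shown because their seed matches were counted.
miR-384-5p: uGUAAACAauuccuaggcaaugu
miR-132-3p: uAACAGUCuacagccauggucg
miR-134-5p: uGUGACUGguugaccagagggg
miR-138-5p: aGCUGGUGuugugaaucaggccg
miR-9-5p: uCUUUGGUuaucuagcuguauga
miR-219a-5p: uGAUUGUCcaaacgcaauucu
let-7a-5p: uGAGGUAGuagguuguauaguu

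Among the mature entries used here, the seed of miR-384-5p is shared with miR-30a-5p, miR-30c-5p and miR-30e-5p, and that of miR-132-3p with miR-212-3p. The seed of let-7a-5p is carried by 11 entries, itself included, most of them other let-7 microRNAs. The match to bases 2 to 8 of each was searched on the sense strand in the last part of the annotated 3′UTR, over a length equal to the span, in the 1995 members whose annotated 3′UTR was at least as long. TGTTTAC, the match of miR-384-5p, occurred in 304 members (15.2%), at 0.128 matches per 1000 nt. ACCAAAG of miR-9-5p occurred in 12.1% of members, CACCAGC of miR-138-5p in 11.8%, GACTGTT of miR-132-3p in 11.2%, CAGTCAC of miR-134-5p in 11.1%, CTACCTC of let-7a-5p in 8.82% and GACAATC of miR-219a-5p in 3.71%. For miR-384-5p the share of genes was 1.77%, 5.50% and 28.9% in the classes spanning up to 250, 251 to 800 and over 2000 nt, at 0.158, 0.112 and 0.113 matches per 1000 nt. The share of genes with a match thus followed the length searched, while the number of matches per nt had no such order.

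In the annotated *Notch1* 3′UTR of 1628 nt, TGTTTAC, the 7-base match of miR-384-5p searched here, was not among the letters. Its shorter match GTTTAC, to bases 2 to 7, began at nt 1490, which leaves 133 nt to the annotated end. The base after it is an A, which stands opposite the first base of the microRNA. The printed letters thus hold another 7-base form of match, bases 2 to 7 with this A. That form was not counted over the members. The paper places a miR-384-5p target in the stretch that *Notch1* loses when its proximal PAS is used. Whether that target is the GTTTAC printed here was not examined. A 7-base match of miR-132-3p began at nt 809, with 813 nt to the end, and a 7-base match of miR-9-5p at nt 84. These sites are printed with the match in capitals. Against a span of 1351 nt, the sites for miR-384-5p and miR-132-3p fall in the last 1351 nt of the annotated 3′UTR and that for miR-9-5p does not.
miR-384-5p, bases 2 to 7: aaataaagtgtaGTTTACaaaaaaaa
miR-132-3p: aaacactgcctgGACTGTTctgtgcat
miR-9-5p: gatgctggggcgACCAAAGgagccttt

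A match of letters is a description of the annotated sequence and was not tested as a target site. The listed PASs could not be placed on the annotated 3′UTR, so whether a match lies between the proximal and the distal PAS of the list was not examined.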

How the data were processed

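Libraries of 3′READS+ were made from 12 RNA samples in 4 groups, and p-values were not computed. Reads were mapped by the authors with Bowtie2, and PASs within 24 nt were clustered. The submitters' processing notes name mm9. The deposited table gives for each PAS a gene symbol, chromosome, strand, region label and position in nt (the 1 value used). Its 12 columns of read numbers carry names that match no sample label, so they were not used and depth and replicate error are not given. Annotations and sequences came from GENCODE M21 and RefSeq (GRCm38), by name, with no coordinates converted. Symbols matched for 15012 of 16627 genes directly and for 1405 through synonyms.

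Genes with 2 or more exon3 PASs on 1 chromosome were classed by span. Counts, shares with 95% Wilson intervals (scipy 1.17.1) and medians with order-statistic intervals came from Python 3.11.15 (pandas 2.3.3, numpy 2.4.6; plots, matplotlib 3.10.9). The intervals cover counting error only. Steps were tested on simulated data. Members and gene lists were chosen with earlier results of these data known, and the Rab symbol pattern was narrowed after the list was seen. Families such as proteasome subunits were taken by symbol pattern, which also takes some assembly factors. It takes some genes outside the family too, such as *Psmc3ip* and *Cox4nb*. Genes were named where the study or a list names them, or for the most exon3, intronic or opposite-strand PASs, the farthest exon3ext PAS or a span next to a bound. Alternatives left out PASs listed under more than 1 gene, counted exon3ext PASs as exon3, or merged PASs within 50 nt. Some genes that this rule names are not reported here.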

Additional observations from a re-analysis of the deposited data

How the results depend on the processing

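The number of genes spanning 801 to 2000 nt was 2191 without PASs listed under more than 1 gene, 2336 with exon3ext PASs counted as exon3, and 2193 with PASs within 50 nt merged. Of the 2203 members, 2190, 1978 and 2192 were members under these settings. Counting exon3ext PASs raised the share of members with an exon3ext PAS to 20.3%, since a gene can then enter through such a PAS. Merging lowered the share of members with 3 or more exon3 PASs to 63.4% and raised the median distance between neighbours to 463 nt, since the shortest intervals are removed. Of the 30 values recomputed, the other 27 stayed within 1.5 times (counts) or within the interval of the reported value. No paired analysis was possible because no result comes from a test between groups. Which PASs are on the list depends on depth, and no minimum on reads was applied here.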
